A study of Mus musculus with 12 samples.

Results

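The interaction of added salt with LPS was followed across the transcriptome of RAW264.7 cells, an established and transformed mouse macrophage line. For each gene the interaction is a difference of differences, the log2 signal of HS + LPS minus NS + LPS, less the log2 signal of HS minus NS. It is 0 when salt changes a gene by the same fold with and without LPS, positive when the salt difference is higher with LPS, and negative when it is lower with LPS. All 12 arrays of the series enter it, and it was measured for the 13722 genes that passed a filter on dim probes. Each of the 4 groups had 3 arrays of cells kept for 24 h. HS + LPS cells had 40 mM NaCl added together with 10 ng/ml LPS, NS + LPS cells had the same LPS without added NaCl, HS cells had the same NaCl without LPS, and NS cells had neither. The labels give HS and NS as letters only, and they are taken here as high salt, a term of the series title, and its counterpart with no NaCl added. The labels do not say that replicates were separate cultures, and the spread that each p-value rests on may be technical.

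LPS (lipopolysaccharide), a building block of the outer membrane of Gram-negative bacteria, is sensed by macrophages through the receptor TLR4. Its adaptors activate NF-kB and AP-1, which turn on cytokine and chemokine genes, and the interferon regulatory factors, which start the antiviral program. High salt raises the tonicity of the medium, and cells answer through the transcription factor NFAT5, which turns on transporters and enzymes that gather organic osmolytes. An interaction term asks whether either program runs differently while the other is active.

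The design has a limit that touches every value below. One slide held the 3 HS + LPS arrays and nothing else, and that slide was scanned on a different, later day than the rest. NS + LPS replicate 3 was alone on another slide, and all other arrays shared a single slide. An effect of slide or scan cannot be told apart from the interaction. The 75th percentile of array signal, to which every array was scaled, averaged 428 on the HS + LPS arrays and lay between 628 and 725 in the mean of each other group. The 8 brightest of 10 spike-in probes, which report RNA that is added at labelling and not made by the cells, had scaled interactions between 0.53 and 0.77 with a median of 0.644, and the 2 dim ones had -0.76 and -0.16. A positive interaction therefore means positive relative to the 75th percentile of the array and not to the added RNA, and 718 of the 2394 positive calls exceeded the spike-in median. The part of the spike-in shift in the results was not tested. All 10 macrophage markers (Csf1r, Adgre1, Itgam, Cd68, Lyz2, Spi1, Ptprc, Tyrobp, Fcgr1 and Mpeg1) were well above background on all 12 arrays. Of 46 markers of other cell types, 15 passed the filter and 3 had a called interaction (Hdc, Tpsb2 and Cd3e, each negative).

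Salt and LPS were not additive on the log2 scale for a large part of the transcriptome. With limma's moderated test at an adjusted p under 0.05, 4983 genes had an interaction (36.3% of those tested), 2394 of them positive (17.4%) and 2589 negative (18.9%). An interaction of at least 2-fold was found for 611 genes (4.45%), 292 positive (2.13%) and 319 negative (2.32%). The median over all genes was -0.03, with a median standard error of 0.093. Positive calls were 48.0% of all calls, against 58.21% with quantile normalization, 61.22% with cyclic loess, 60.25% when scaled to probes above background on every array and 58.26% in the authors' deposited table, so which direction is the more frequent depends on the scaling. For 4748 genes (34.6%) the 9 salt differences that can be formed between HS + LPS and NS + LPS arrays did not overlap the 9 between HS and NS arrays, and 4484 of these were called. On the linear scale, which asks about summed signal and not folds, 104 of the 4983 called genes (2.09%) had the opposite sign.

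**Figure D1:**
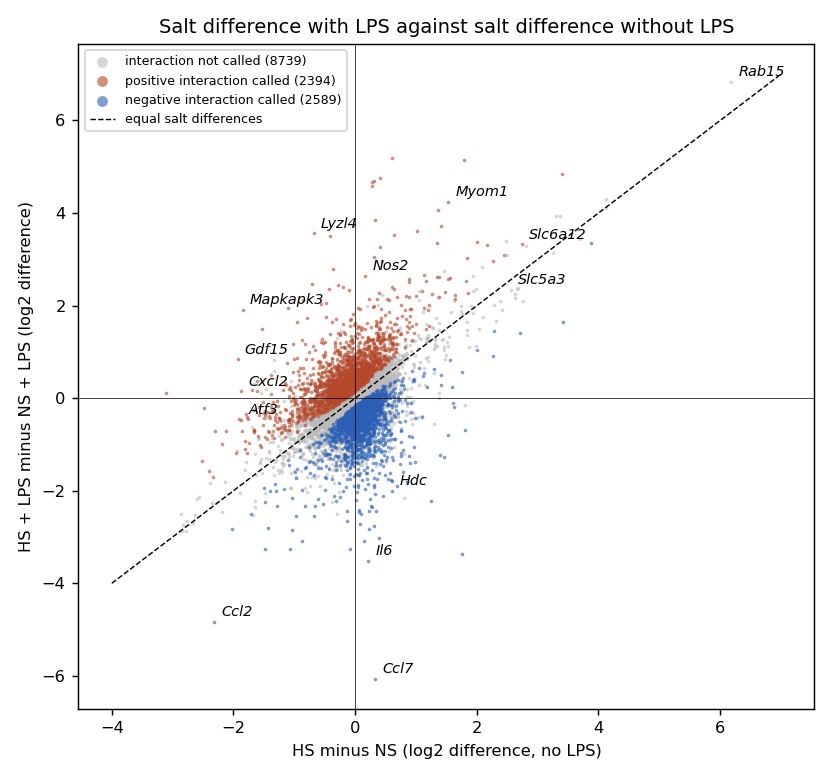
Each point is 1 of 13722 genes, with the log2 difference HS + LPS minus NS + LPS on the y axis and HS minus NS on the x axis. Genes on the dashed line had equal salt differences, and the 2394 positive calls (red) lie above it and the 2589 negative calls (blue) below it, among them Ccl7, whose place rests on signals not above background, and Ccl2.

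Many interactions were salt differences called in LPS-treated cells and not in the others. Over all genes salt was called for 57.6% with LPS (26.2% higher, 31.4% lower) and for 37.3% without it (18.3% higher, 19% lower). Of the 4983 called genes, 2540 (51.0%) had a salt difference called with LPS and not without it, 981 of them higher and 1559 lower in HS + LPS. With array weights this class held 2420 of 5767 calls, and with quantile normalization 2465 of 5224, so whether it is the majority depends on the setting. The reverse, a salt difference called without LPS only, was found for 809 genes (16.2%). Salt differences in opposite directions were found for 675 genes (13.5%), of which 379 were higher with LPS and lower without it and 296 the other way. Another 611 genes (12.3%) had salt differences in 1 direction that were larger with LPS, 217 (4.35%) had smaller ones with LPS, and for 131 (2.63%) neither salt difference was called. These classes share the arrays of the interaction and describe its shape. A threshold passed on one side only is not itself a difference, which is what the interaction tests.

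Several secreted inflammatory proteins that LPS turns on had negative interactions. Ccl2, which attracts monocytes, had a scaled signal (array 75th percentile = 1) of 10.1, 12.1 and 8.02 on the HS + LPS arrays and 283, 297 and 271 on the NS + LPS arrays. Without LPS it had 0.124, 0.0984 and 0.0996 on the HS arrays and 0.520, 0.574 and 0.506 on the NS arrays. In both settings every salt array lay below every array without added salt. The salt difference was 28.5-fold lower with LPS and 4.98-fold lower without it, an interaction of -2.52 (SE 0.20, adjusted p = 2.03e-05; probe on chromosome 11, 81850650 to 81850709, mm9). Ccl7, a neighbouring monocyte attractant, was at least 56.0-fold lower in HS + LPS than in NS + LPS, being well above background on the NS + LPS arrays alone, and Ccl12 was at least 3.57-fold lower with the same pattern.

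Il6, the cytokine that drives the acute phase response, had a scaled signal of 0.528, 0.716 and 0.564 in HS + LPS and 7, 7.26 and 6.18 in NS + LPS. It was not well above background on any HS or NS array, so its interaction rests on levels that LPS produced. LPS raised it at least 15.7-fold with added salt and at least 189-fold without, and within LPS the salt groups differed 11.4-fold with no overlap. The interaction was negative (adjusted p = 7.99e-06), and its size is not given because it subtracts a difference between background signals. Il1b, the inflammasome-processed cytokine, had 0.518, 0.53 and 0.5 in HS + LPS and 2.45, 2.92 and 2.52 in NS + LPS. Its LPS response was at least 13.5-fold with salt and at least 73.0-fold without (negative interaction, adjusted p = 1.54e-06, of no exact size for the same reason). Il23a, a subunit of IL-23, and Il1a were well above background on every NS + LPS array and no HS + LPS array, and were at least 3.52-fold and at least 6.24-fold lower with salt under LPS. Csf2, which encodes GM-CSF, was likewise above background with LPS alone, with an HS + LPS minus NS + LPS difference of -2.46.

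Other LPS-induced genes of the same kind moved in the opposite direction or held their level. Cxcl2, a neutrophil attractant, had a scaled signal of 39.4, 34.6 and 41.2 in HS + LPS and 34.8, 36 and 32.9 in NS + LPS. It had 0.0286, 0.0585 and 0.0281 in HS, where no array was well above background, and 0.131, 0.123 and 0.144 in NS. The groups with LPS overlapped, while without LPS salt lowered it at least 3.17-fold, and the interaction was positive (adjusted p = 0.00127). Its fitted size rests on HS signals not above background, 2.02 as scaled and 0.70 with normexp background correction. Here and below, that correction also added an offset of 50 to every signal, which by itself makes folds of dim genes smaller. Tnf, the early cytokine of the LPS response, had 153, 153 and 159 in HS + LPS and 140, 134 and 131 in NS + LPS, against 19.3, 20.2 and 20.4 in HS and 20.1, 20.9 and 21.6 in NS (interaction 0.26, SE 0.061, adjusted p = 0.00808). Its salt arrays were higher than all others under LPS, but by 1.15-fold only.

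The promoters of Il6 and Cxcl2 are shown because both hold an NF-kB-type sequence and yet had interactions of opposite sign. The letters searched were GGGA and TTCC with any 2 bases between them, on both strands, in the window from 250 bases before to 50 bases after the start of each gene (RefSeq, GRCm38.p6). Capitals mark the match, which in Cxcl2 is a pair of matches that overlap by all but a base. Il6 spans chr5:30012864-30013163 and Cxcl2 spans chr5:90903649-90903948, both on the plus strand.
Il6: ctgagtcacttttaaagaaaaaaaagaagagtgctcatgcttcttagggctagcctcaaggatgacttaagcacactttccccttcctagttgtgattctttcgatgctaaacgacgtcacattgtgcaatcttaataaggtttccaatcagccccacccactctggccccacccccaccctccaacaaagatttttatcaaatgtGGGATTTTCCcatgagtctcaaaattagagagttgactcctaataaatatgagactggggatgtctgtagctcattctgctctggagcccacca
Cxcl2: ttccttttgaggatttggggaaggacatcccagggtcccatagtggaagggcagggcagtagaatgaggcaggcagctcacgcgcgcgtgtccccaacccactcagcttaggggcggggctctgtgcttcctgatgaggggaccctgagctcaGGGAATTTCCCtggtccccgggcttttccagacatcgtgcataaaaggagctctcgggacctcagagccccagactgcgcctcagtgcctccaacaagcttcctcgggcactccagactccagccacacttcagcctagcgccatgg
The match began at position -44 from the start of Il6 and at positions -97 and -96 from that of Cxcl2. Such a match was held by 1.43% of all promoters that RefSeq lists, as did 2 of 7 chemokine promoters (28.6%) and 3 of 11 cytokine promoters (27.3%) that could be matched by symbol. Among genes with a positive interaction the share was 1.33% and among those with a negative one 1.75%.

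By list, the inflammatory genes split. Of 14 chemokines measured, 5 were positive and 6 negative, and of 17 inflammatory cytokines 4 were positive and 7 negative. Beside that, 36.3% of all genes were called in either direction. Ccl5, a T cell attractant, was negative (-1.45, SE 0.13), with salt differences of -0.69 with LPS and 0.76 without. Gdf15, a stress cytokine of the TGF-beta family, had the largest positive value of the cytokines (2.78, SE 0.12, adjusted p = 1.22e-06). It had a scaled signal of 2.3, 2.31 and 2.45 in HS + LPS and 1.27, 1.29 and 1.37 in NS + LPS, and of 0.516, 0.594 and 0.478 in HS and 2.21, 1.93 and 1.92 in NS. Salt thus raised Gdf15 with LPS and lowered it without, with no overlap in either pair.

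**Figure D2:**
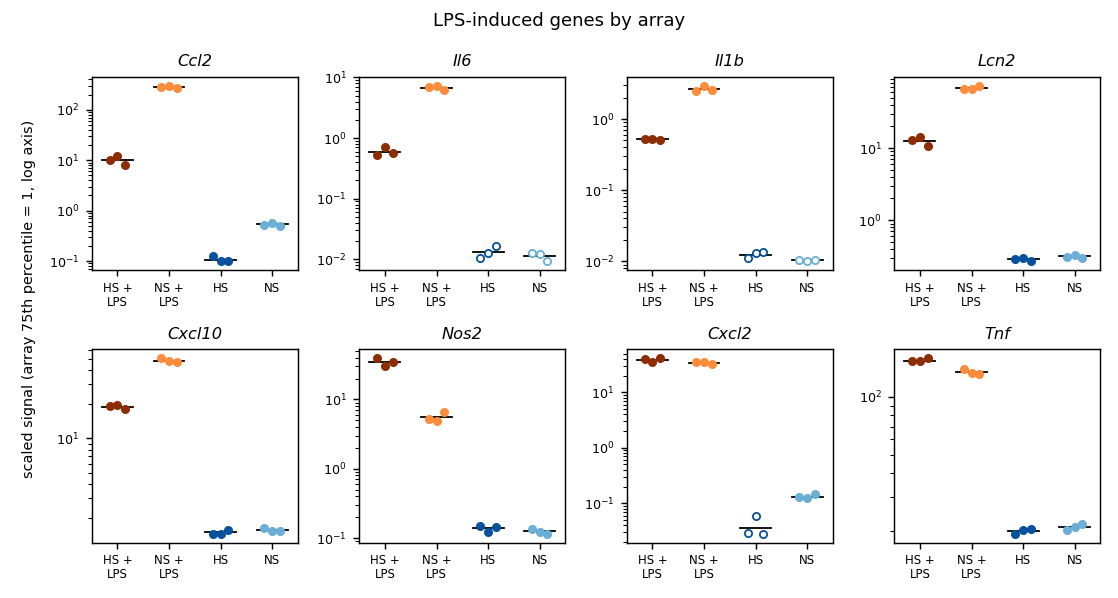
Scaled signal of 8 LPS-induced genes on a log axis, with 1 point per array, a bar at the mean of the log2 values of each group, and open points where the group was not well above background on all 3 arrays. HS + LPS lies below NS + LPS for Ccl2, Il6, Il1b, Lcn2 and Cxcl10, above it for Nos2 and Tnf, and overlaps it for Cxcl2.

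Effector enzymes of the activated macrophage also went both ways. Nos2, the inducible nitric oxide synthase, had a scaled signal of 39.3, 30.4 and 35 in HS + LPS and 5.18, 4.96 and 6.69 in NS + LPS. Without LPS it had 0.149, 0.124 and 0.145 in HS and 0.135, 0.123 and 0.115 in NS, where the groups overlapped. LPS raised it 250-fold with salt and 44.8-fold without, an interaction of 2.48 (SE 0.19, adjusted p = 1.54e-05; probe on chromosome 11, 78773567 to 78773626, mm9). Lcn2, which binds bacterial siderophores, went the other way at -2.32 (SE 0.13, adjusted p = 3.17e-06). It had 12.9, 14.2 and 10.8 in HS + LPS and 66.6, 65.8 and 72.7 in NS + LPS, and 0.291, 0.302 and 0.268 in HS and 0.313, 0.327 and 0.303 in NS. The enzymes Hdc, which makes histamine, and Upp1, which cleaves uridine, were negative at -2.61 (SE 0.10) and -2.06 (SE 0.27). Hdc is also a mast cell marker. Of 6 such markers Hdc and Tpsb2 passed the filter, while Kit, Cpa3, Mcpt4 and Fcer1a did not, and the summed signal of the pair was 2.56 to 2.9 in HS + LPS, 9.85 to 10.2 in NS + LPS, 0.685 to 0.707 in HS and 0.51 to 0.561 in NS. Acod1, which makes itaconate, was lower with salt by about the same amount in both settings, -0.74 with LPS and -0.73 without (interaction -0.01, SE 0.074, adjusted p = 0.91).

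The signalling genes upstream of these targets had interactions in both directions. Of 18 NF-kB subunit and feedback genes 2 were positive and 4 negative (2 to 4 when any 1 array was left out), with Traf1, a TNF receptor adaptor, at -1.31 (SE 0.084) and the NF-kB partner Bcl3 at 0.63 (SE 0.13). Of 19 genes of TLR4 and its adaptors 5 were positive (3 to 6 when any 1 array was left out) and 6 negative, and none reached 2-fold (range -0.43 to 0.54). Tlr4 itself was negative at -0.43 (SE 0.075, adjusted p = 0.00191). Of 13 SOCS and DUSP genes, which brake cytokine and MAP kinase signalling, 2 were positive (1 to 2 when any 1 array was left out) and 2 negative, among them Socs3 at -0.59 (SE 0.059) and Dusp1 at -0.84 (SE 0.10). Of 22 early response genes 8 were positive and 1 negative (0 to 2 when any 1 array was left out), among them Egr2 (1.31, SE 0.25, or 0.67 with normexp background correction) and Maff (0.99, SE 0.13). The share called was 33.3% for the NF-kB list, 30.8% for the SOCS and DUSP list and 40.9% for the early response list, near the 36.3% of all genes. For the TLR4 list it was 57.9%. Ptgs2, the inducible cyclooxygenase, was not called (0.26, SE 0.11, adjusted p = 0.0976), while Alox5, the 5-lipoxygenase, was positive (1.01, SE 0.065).

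Interferon-stimulated genes, the antiviral program of the cell, held positive, negative and uncalled members. Of 43 measured, 14 were positive and 7 negative (median 0.10, or 0.01 with normexp background correction). That is 48.8% called, against 36.3% of all genes. Among the negative ones were Iigp1 (-1.37, SE 0.18, or -0.82 with normexp background correction), Rsad2 (-1.13, SE 0.050) and Ifi47 (-1.09, SE 0.11), and Gbp2, for which no HS array was above background. Rsad2, the antiviral enzyme viperin, had a scaled signal of 35.5, 36.7 and 36.6 in HS + LPS and 102, 96.6 and 98.7 in NS + LPS, against 0.459, 0.460 and 0.466 in HS and 0.580, 0.588 and 0.563 in NS. Salt lowered it 2.73-fold with LPS and 1.25-fold without, with no overlap in either pair. Zbp1, a nucleic acid sensor, was positive (0.88, SE 0.096), as were the regulator Irf7 (0.71, SE 0.14) and Xaf1 (0.70, SE 0.064). With normexp background correction Zbp1 was at 0.41, and with the mean of its probes Xaf1 was at 0.31. The salt difference of Zbp1 was -0.26 with LPS and -1.13 without, and that of Xaf1 -0.24 and -0.94. For both, the positive interaction was thus a smaller fold decrease with salt under LPS and not a rise, with the opposite sign on the linear scale. Irf7 had salt differences of 0.35 with LPS and -0.36 without. Cxcl10, an interferon-induced chemokine, was negative, at 19.4, 19.8 and 18 in HS + LPS and 50.5, 47.6 and 46.8 in NS + LPS against 1.46, 1.46 and 1.57 in HS and 1.65, 1.53 and 1.53 in NS (interaction -1.28, SE 0.076). The letters GAAA, any 2 bases and GAAA again, read on both strands as an interferon-stimulated response element, were found in 18 of 31 promoters of this list (58.1%) against 3.23% of the promoters of all genes tested.

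The called genes of antigen presentation were mostly positive. For MHC class II, which displays peptides to helper T cells, 5 of 7 measured genes were positive and none negative (median 1.11, or 0.61 with normexp background correction). H2-Ab1, a chain of the class II molecule itself, had a scaled signal of 0.316, 0.296 and 0.314 in HS + LPS and 0.179, 0.153 and 0.170 in NS + LPS, and of 0.220, 0.234 and 0.203 in HS and 0.257, 0.248 and 0.261 in NS. Salt raised it with LPS and lowered it without (interaction 1.11, SE 0.094, adjusted p = 3.27e-05). H2-Oa, a subunit of a regulator of peptide loading, was 3.22-fold higher with salt under LPS and was not called without LPS (1.78, SE 0.088). These genes were dim, H2-Ab1 lying under the 75th percentile by more than 1 log2 unit on every array, and H2-Eb1 and H2-Ob were not well above background in NS + LPS. For MHC class I presentation 9 of 16 were positive and 1 negative (median 0.20). When any 1 array was left out, 7 to 8 were positive and 1 to 2 negative. The median salt difference of the class I list was -0.09 with LPS and -0.25 without, a smaller log2 decrease and not a rise. Its peptide loading factor Tapbp was at 0.44 (SE 0.059) and the class I activator Nlrc5 at -0.55 (SE 0.063). Of the class II and class I lists 71.4% and 62.5% were called, against 36.3% of all genes. Lgals9, Havcr2 and Vsir, a ligand and receptors that restrain T cells, were positive at 1.15 (SE 0.10), 1.06 (SE 0.070) and 1.36 (SE 0.073), Lgals9 with the opposite sign on the linear scale and at 0.74 with normexp background correction.

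Hypoxia-inducible genes were mostly positive. HIF-1 is the transcription factor that accumulates when oxygen is short, and also in LPS-treated macrophages, where it supports glycolysis. Of 19 measured genes of its list 16 were positive and none negative (median 0.59, against -0.03 over all genes). That is 84.2% called, against 36.3% of all genes. Bnip3, which targets mitochondria for autophagy, had a scaled signal of 111, 95.6 and 116 in HS + LPS and 48.5, 46.8 and 46.4 in NS + LPS. It had 32.0, 43.3 and 27.4 in HS and 47.5, 49.3 and 49.4 in NS. Salt raised it 2.27-fold with LPS and lowered it 1.45-fold without, with no overlap in either pair (interaction 1.72, SE 0.20, adjusted p = 0.000166), and its 3 probes gave values between 1.71 and 1.89. Ddit4, an inhibitor of mTOR, had 44.7, 37.7 and 37.6 in HS + LPS and 12.9, 13.2 and 13.7 in NS + LPS, against 19.1, 21.1 and 18.4 in HS and 19.5, 20.2 and 19.8 in NS. Only the pair with LPS separated (interaction 1.61, SE 0.10, adjusted p = 5.6e-06). The oxygen sensor Egln3 was at 1.41 (SE 0.13), the growth factor Vegfa at 1.25 (SE 0.12) and the kinase Pdk1, which keeps pyruvate from mitochondria, at 0.59 (SE 0.076). Hif1a (0.32, adjusted p = 0.058) and the glucose transporter Slc2a1 (0.18, adjusted p = 0.0578) were not called, but both were with cyclic loess (0.36 and 0.21).

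Promoters of Bnip3 and Ddit4 are printed because the core of the hypoxia response element, ACGTG, lies in both and was frequent in the list. Bnip3 spans chr7:138909457-138909756 and Ddit4 spans chr10:59951721-59952020, both on the minus strand (RefSeq, GRCm38.p6), and capitals mark the core. In Bnip3 the core reads on both strands of a palindrome, which counts as overlapping matches at positions -108 and -107 from the start, and in Ddit4 it begins at -187.
Bnip3: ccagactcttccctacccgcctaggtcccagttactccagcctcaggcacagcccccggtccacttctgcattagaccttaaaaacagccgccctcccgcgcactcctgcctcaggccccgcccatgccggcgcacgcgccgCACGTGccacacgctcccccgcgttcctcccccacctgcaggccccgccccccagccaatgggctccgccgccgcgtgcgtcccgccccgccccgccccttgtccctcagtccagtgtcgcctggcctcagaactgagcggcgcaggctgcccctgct
Ddit4: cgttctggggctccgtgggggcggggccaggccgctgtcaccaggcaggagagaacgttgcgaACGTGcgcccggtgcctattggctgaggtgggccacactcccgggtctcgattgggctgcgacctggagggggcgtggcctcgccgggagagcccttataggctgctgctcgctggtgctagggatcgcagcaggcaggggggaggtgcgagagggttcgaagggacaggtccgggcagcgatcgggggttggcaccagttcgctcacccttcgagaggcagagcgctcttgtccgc
Of 17 promoters of the hypoxia list 11 held the core on either strand (64.7%), as did 12 of 23 of the glycolysis list (52.2%). The share was 25.3% over the promoters of all genes tested and 19.7% over the whole table. It was 24.6% among all genes with a positive interaction and 25.9% among those with a negative one. A match describes letters in the window and not binding.

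Glycolysis genes were also mostly positive. Of 24 measured, 18 were positive and none negative (median 0.36). Eno2, an enolase, had a scaled signal of 8.68, 6.64 and 8.54 in HS + LPS and 2.78, 2.50 and 2.72 in NS + LPS, and of 3.16, 3.60 and 3.19 in HS and 3.38, 3.66 and 3.53 in NS. The salt groups separated with LPS and overlapped without it (interaction 1.66, SE 0.14, adjusted p = 3.22e-05). The phosphofructokinase genes Pfkl and Pfkm, whose enzyme commits glucose to glycolysis, were at 0.98 (SE 0.082) and 0.93 (SE 0.060), and Pfkfb3, which makes their activator, at 0.97 (SE 0.096). Gapdh was not called by its brightest probe (0.23, SE 0.088, adjusted p = 0.0627). Of its 6 other probes 5 were called positive, between 0.27 and 0.36, with adjusted p between 0.00681 and 0.0192 over all probes. Of 38 oxidative phosphorylation genes none was positive and 6 were negative, a count between 1 and 11 when any 1 array was left out, and all lay between -0.41 and 0.21. Of 25 TCA cycle genes 5 were positive, 3 to 5 when any 1 array was left out, and 1 was negative. Beside the 36.3% of all genes, the share called was 75% for glycolysis, 15.8% for oxidative phosphorylation and 24% for the TCA cycle.

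**Figure D3:**
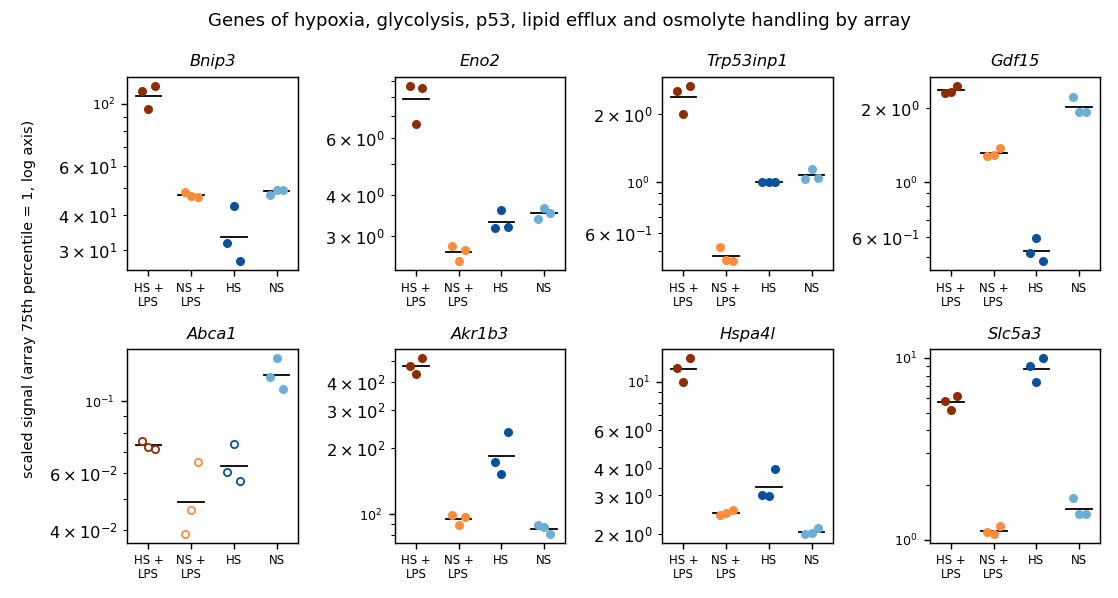
Scaled signal of Bnip3, Eno2, Trp53inp1, Gdf15, Abca1, Akr1b3, Hspa4l and Slc5a3 on log axes, drawn as for the LPS-induced genes with 1 point per array and open points where a group was not well above background on all 3 arrays. HS + LPS lies above NS + LPS in all 8 panels, while of these 8 genes HS lies above NS for Akr1b3, Hspa4l and Slc5a3. No HS + LPS array was well above background for Abca1, a cholesterol exporter.

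Genes of growth arrest and of division moved in opposite directions. Of 24 cycle arrest and p53 target genes 16 were positive and 1 negative (median 0.51, or 0.32 with normexp background correction). That is 70.8% called, against 36.3% of all genes. Trp53inp1, a p53-induced stress protein, had a scaled signal of 2.52, 2.01 and 2.66 in HS + LPS and 0.520, 0.453 and 0.448 in NS + LPS. It lay between 1.00 and 1.15 on all HS and NS arrays, so that LPS lowered it without salt and raised it with salt (interaction 2.44, SE 0.14, adjusted p = 3.54e-06). Phlda3, an inhibitor of Akt, was at 1.26 (SE 0.069) and Sesn1, a sestrin, at 1.21 (SE 0.14). Cdkn1a, the cyclin-dependent kinase inhibitor p21, was at 1.03 (SE 0.065), and Mdm2, the ubiquitin ligase of p53, at 0.90 (SE 0.068).

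Of 36 cell cycle and replication genes, 28 were negative and 2 positive (median -0.43, 83.3% called). Mki67, a marker of dividing cells, had 37.0, 33.2 and 31.6 in HS + LPS and 47.4, 52.8 and 52.9 in NS + LPS, against 93.2, 106 and 100 in HS and 75.2, 82.2 and 83.4 in NS. Salt lowered it with LPS and raised it without (interaction -0.90, SE 0.11, adjusted p = 0.000209). Cdk1, the mitotic kinase, was at -0.88 (SE 0.21), or -0.32 (adjusted p = 0.0499) with normexp background correction, and its second probe was not called (-0.78, adjusted p = 0.172). The licensing factor Cdc6 was at -0.80 (SE 0.15), but its second probe, of similar level, gave -0.29 (adjusted p = 0.0201). Ccna2, cyclin A2, was at -0.64 (SE 0.11). Ribosome biogenesis, the nucleolar work of growing cells, was negative in 13 of 30 genes and positive in none (median -0.20), with the nucleolar protein Nop58 at -0.79 (SE 0.050). Its share called was 43.3%, near the 36.3% of all genes, and 18.9% of all genes were negative. Of 31 genes of the ribosomal proteins themselves 1 was positive and 2 negative, a share of 9.68% against 36.3% of all genes. Other scalings gave 1 to 9 positive and 0 to 2 negative calls in that list, and leaving out 1 array gave 0 to 1 positive and 0 to 3 negative, so its low share depends on the scaling.

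Autophagy and lysosome genes, the recycling machinery, were positive in 23 of 44 and negative in 1 (median 0.27). That is 54.5% called, against 36.3% of all genes. Ctsh, a lysosomal protease, had a scaled signal of 1.13, 1.02 and 1.29 in HS + LPS and 0.449, 0.507 and 0.517 in NS + LPS, and of 0.728, 0.780 and 0.730 in HS and 1.07, 1.10 and 0.979 in NS. Each salt pair separated, in opposite directions (interaction 1.71, SE 0.12, adjusted p = 1.29e-05). Wipi1, which helps to form autophagosomes, was at 1.31 (SE 0.18, with 0.70 for the mean of its probes and -0.04 by the dimmest), and the initiating kinase Ulk1 at 0.84 (SE 0.15). Atp6v0d1, a subunit of the proton pump that acidifies lysosomes, was at 0.68 (SE 0.076).

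**Figure D4:**
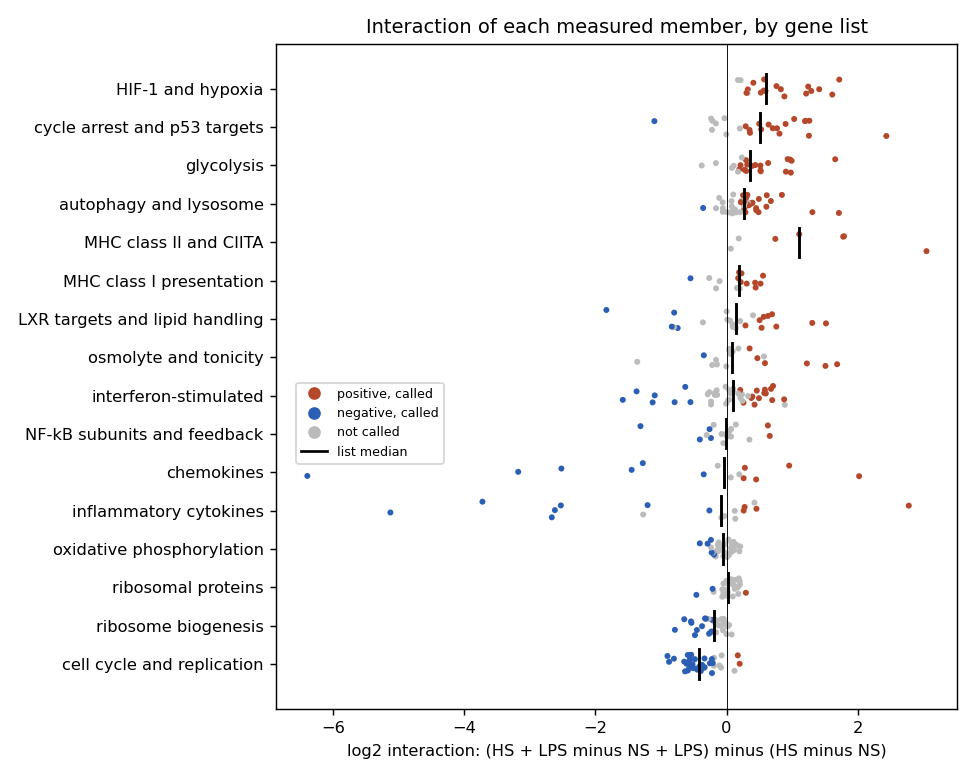
Log2 interaction of each measured member of a selection of the gene lists, with 1 point per gene coloured by its call and a bar at each list's median. The hypoxia list has its median at 0.59 with no negative call, and the cell cycle list has its median at -0.43 with 28 negative calls.

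In the osmolyte program, the response to salt itself, no interaction was called for Slc5a3 or Nfat5. Slc5a3, the myo-inositol transporter, had a scaled signal of 5.81, 5.15 and 6.20 in HS + LPS and 1.11, 1.08 and 1.19 in NS + LPS, and of 9.02, 7.35 and 9.96 in HS and 1.69, 1.38 and 1.38 in NS. Salt arrays lay above the others in both pairs by similar folds, 5.07 with LPS and 5.89 without (interaction -0.22, SE 0.17, adjusted p = 0.338). Nfat5 rose with salt in both settings, and its interaction was 0.06 (SE 0.085, adjusted p = 0.604). A p above the threshold does not show that the folds are equal, and the standard error for Slc5a3 is as large as most of its estimate.

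Some other members of the osmolyte list were raised further under LPS. Akr1b3, the aldose reductase that makes sorbitol, had 474, 438 and 515 in HS + LPS and 98.7, 89.1 and 96.7 in NS + LPS, against 173, 152 and 238 in HS and 89.5, 87.0 and 81.4 in NS. Salt raised it 5.01-fold with LPS and 2.14-fold without, with no overlap in either pair (interaction 1.23, SE 0.19, adjusted p = 0.00108). Hspa4l, a chaperone of the Hsp110 family, had 11.5, 10.0 and 12.8 in HS + LPS and 2.43, 2.49 and 2.56 in NS + LPS, and 3.02, 2.97 and 3.98 in HS and 2.00, 2.02 and 2.12 in NS (interaction 1.51, SE 0.16, adjusted p = 0.000114). Aqp1, a water channel, was at 1.69 (SE 0.24) and the taurine transporter Slc6a6 at 0.47 (SE 0.074). In all, 6 of 18 measured members were positive and 1 negative (median 0.08, range -1.36 to 1.69). The share called was 38.9%, near the 36.3% of all genes. Slc6a12, the betaine transporter, was near the threshold (0.59, SE 0.19, adjusted p = 0.0369). It had 186, 166 and 192 in HS + LPS and 18.8, 15.3 and 20.6 in NS + LPS, and 96, 87 and 118 in HS and 15.8, 13.4 and 15.7 in NS. Salt raised it in both settings with no overlap, 10.0-fold with LPS and 6.67-fold without. The Slc6a12 call ended with array weights (0.53, adjusted p = 0.0532), with no filter on dim probes (0.59, adjusted p = 0.0831), and on leaving out any single one of 8 arrays, the value then lying between 0.46 and 0.61. Those arrays were NS 1 and NS 3, HS 1 and HS 2, NS + LPS 1 and NS + LPS 2, and HS + LPS 1 and HS + LPS 3.

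The promoter of Slc6a12 is shown to set a tonicity element beside the salt folds of this transporter. It spans chr6:121342324-121342623 on the plus strand (RefSeq, GRCm38.p6), and capitals mark TGGAAA, the core of the tonicity-responsive element to which NFAT5 binds, here at position -75 from the start.
Slc6a12: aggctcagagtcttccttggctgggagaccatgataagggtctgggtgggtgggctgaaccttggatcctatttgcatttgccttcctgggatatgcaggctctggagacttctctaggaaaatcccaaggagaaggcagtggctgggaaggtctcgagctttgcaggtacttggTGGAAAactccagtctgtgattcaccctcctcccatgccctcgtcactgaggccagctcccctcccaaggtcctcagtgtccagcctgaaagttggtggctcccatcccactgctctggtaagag
So short a core is common. It was present on either strand in 21.5% of all promoters in the table, in 17.0% of those of the genes tested and in 4 of 14 of the osmolyte list (28.6%).

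Lipid handling, stress and surface receptor lists were mixed. Of 23 genes of LXR targets and lipid handling 9 were positive and 4 negative (56.5% called, against 36.3% of all genes). Abcg1, which exports cholesterol, had a scaled signal of 10.3, 9.39 and 11.6 in HS + LPS and 2.95, 2.68 and 3.33 in NS + LPS, and of 11.5, 11.3 and 13.7 in HS and 8.70, 8.82 and 8.37 in NS. The NS + LPS arrays stood below all others (interaction 1.31, SE 0.14, adjusted p = 0.000145). Apoe, the lipoprotein, was negative at -0.83 (SE 0.086), as was Cd36, the fatty acid scavenger, at -0.80 (SE 0.19). Of 27 NRF2 targets 9 were positive and 4 negative (48.1% called). Heme oxygenase Hmox1 was at 1.31 (SE 0.065), with 182, 184 and 190 in HS + LPS, 96.6, 93.3 and 94.1 in NS + LPS, 18.5, 19.9 and 20.4 in HS and 25.9, 24.6 and 24.0 in NS.

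Of 29 genes of the integrated stress response and amino acid supply, 6 were positive and 9 negative. Atf3, a stress-induced transcription factor, had 18.8, 18 and 18.2 in HS + LPS and 26.5, 25.3 and 24.2 in NS + LPS, against 5.52, 7.29 and 4.61 in HS and 19.7, 22.5 and 20.3 in NS. Salt lowered it in both settings, but by 1.38-fold with LPS and 3.65-fold without, which makes a positive interaction (1.40, SE 0.19, adjusted p = 0.000446). The unfolded protein response was negative in 7 of 21 genes and positive in 2, led by Herpud1 (-0.65, SE 0.084), which helps to remove misfolded proteins. Heat shock chaperones were negative in 4 of 16 and positive in 1, Hspa4l. When any 1 array was left out, 0 to 4 chaperones were negative and 1 to 3 positive. The share called was 42.9% for the unfolded protein response and 31.2% for the chaperones, near the 36.3% of all genes. It was 51.7% for the integrated stress response list.

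Among receptors, Lilrb4a, an inhibitory immunoglobulin-like receptor, was positive at 1.22 (SE 0.11, adjusted p = 3.69e-05). It had 287, 280 and 281 in HS + LPS and 298, 296 and 295 in NS + LPS, and 46.7, 50.9 and 40.7 in HS and 111, 121 and 106 in NS. Salt lowered it 2.45-fold without LPS, and with LPS the groups differed by 1.05-fold (adjusted p = 0.47). The related Lilr4b gave 1.18 (SE 0.11), but near-identical receptors of this family can share probe targets, so the pair is not independent. The other 6 measured genes of the PIR and LILR list were not called. Fcgr1, the high-affinity IgG receptor, was negative at -1.37 (SE 0.077), and so were the lipid sensor Trem2 at -0.91 (SE 0.11) and the beta-glucan receptor Clec7a at -1.78 (SE 0.23, or -0.93 with normexp background correction). Of 22 macrophage identity genes 8 were positive and 3 negative, and of 14 scavenger and lectin receptors 6 were positive, 3 to 5 when any 1 array was left out, and 4 negative. In these lists 50% and 71.4% were called, against 36.3% of all genes. In the osteoclast list 7 of 13 were positive and 1 negative (61.5% called). Acp5, the tartrate-resistant phosphatase, was at 1.76 (SE 0.11), and the negative one, carbonic anhydrase Car2 (-0.96, SE 0.13), rose with salt by 1.05 with LPS and 2.01 without and had the opposite sign on the linear scale.

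The remaining lists held calls in both directions. Positive and negative calls were 7 and 4 of 27 for cholesterol and fatty acid synthesis (4 to 7 positive when any 1 array was left out), 6 and 4 of 22 for antimicrobial genes, 3 and 1 of 11 for nitric oxide and arginine (1 to 3 negative), and 6 and 3 of 17 for prostaglandins and leukotrienes. They were 5 and 2 of 12 for co-stimulation (1 to 2 negative when any 1 array was left out), 5 and 2 of 23 for ion transport (1 to 3 negative), 8 and 4 of 28 for survival and death, and 3 and 2 of 10 for matrix proteases (1 to 3 negative). Of all genes 36.3% were called. The share was 40.7% for cholesterol and fatty acid synthesis, 45.5% for antimicrobial genes, 36.4% for nitric oxide and 52.9% for prostaglandins. It was 58.3% for co-stimulation, 30.4% for ion transport, 42.9% for survival and death and 50% for matrix proteases. In these lists the plasminogen activator Plau was positive at 1.21 (SE 0.10) and the iron exporter Slc40a1 at 1.18 (SE 0.062). The survival gene Bcl2a1d was negative at -0.75 (SE 0.11).

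The largest positive interactions among genes well above background on all 12 arrays were led by Lyzl4. Lyzl4, a lysozyme-like gene, had a scaled signal of 1.38, 1.13 and 1.48 in HS + LPS and 0.113, 0.112 and 0.111 in NS + LPS, and of 0.0985, 0.105 and 0.114 in HS and 0.193, 0.176 and 0.142 in NS. HS + LPS stood above every other group and the rest lay close together (interaction 4.24, SE 0.17, adjusted p = 1.17e-06), and its other probe gave 4.18. Epha2, an ephrin receptor, had 7.05, 5.69 and 8.16 in HS + LPS and 0.527, 0.540 and 0.616 in NS + LPS, and 1.85, 1.85 and 2.39 in HS and 0.970, 0.968 and 1.05 in NS. Salt raised it in both settings and LPS alone lowered it (2.60, SE 0.19, adjusted p = 1.44e-05). Gfi1, a transcriptional repressor of blood cells, showed the same order with an interaction of 2.69 (SE 0.20), and the sarcomere gene Myom1 one of 2.71 (SE 0.23). The flippase gene Atp9a was at 2.99 (SE 0.16) by its brightest probe, but its other probe gave -1.94 (adjusted p = 0.0514), and the call ended with the mean of both (0.53). The others of the 10 were 1600014C23Rik, 1600022D10Rik, Tnxb, Gdf15 and Robo3, between 2.52 and 3.16.

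At the negative end of the same ranking were Hdc, Ccl2, Lcn2 and Upp1, described above, followed by Klk9, Id3, Elapor1, Clec7a, Sh3bgr and Gpr84. Id3, an inhibitor of helix-loop-helix factors, had 1.09, 1.23 and 1.01 in HS + LPS and 2.40, 2.64 and 2.50 in NS + LPS, and 3.20, 3.31 and 3.35 in HS and 2.14, 1.84 and 1.85 in NS. Salt alone and LPS alone each raised it, while the combination left it below all other groups (interaction -1.94, SE 0.11, adjusted p = 3.6e-06). Gpr84, a receptor for medium-chain fatty acids, had 8.01, 8.38 and 7 in HS + LPS and 32.8, 33.2 and 34.4 in NS + LPS, against 36, 36.4 and 33.1 in HS and 45.1, 46.9 and 42.8 in NS. Each stimulus alone lowered it 1.34-fold or less, and HS + LPS stood below every other group, 4.31-fold below NS + LPS (-1.75, SE 0.097, adjusted p = 3.1e-06). The 2 probes of Elapor1 were called in opposite directions (-1.78 and 1.43), so its direction is uncertain.

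Among genes raised by each stimulus alone, negative interactions outnumbered positive ones. LPS was called for 72.3% of all genes with salt (30.5% higher, 41.8% lower) and for 63.9% without it (28.7% higher, 35.2% lower). Of 721 genes called higher both for salt without LPS and for LPS without salt, 86 had a positive interaction (0.627% of all genes tested), 14 of them at least 2-fold, and 242 a negative one. Of 936 genes lowered by each stimulus alone, 451 had a positive interaction and 64 a negative one. Over all genes 17.4% were positive and 18.9% negative. These counts share arrays and are a description. The NS arrays are subtracted in both selecting differences and added in the interaction, and the HS and NS + LPS arrays the reverse. Selecting genes on both rises therefore favours a negative interaction, and selecting on both falls a positive one. Crtam, an adhesion receptor of lymphocytes, led the positive interactions of genes raised by each stimulus alone and measured in both LPS groups. It had 2.53, 2.42 and 2.77 in HS + LPS and 0.222, 0.157 and 0.209 in NS + LPS, and 0.110, 0.0841 and 0.133 in HS, while it was not well above background in NS (interaction 2.32, SE 0.25, adjusted p = 0.00013). Mylk2, a myosin light chain kinase of muscle, had 2.23, 1.89 and 2.36 in HS + LPS, 0.197, 0.224 and 0.210 in NS + LPS, 0.284, 0.212 and 0.339 in HS and 0.115, 0.106 and 0.101 in NS. Each stimulus alone raised it by 2.55-fold or less and salt raised it 10.3-fold on top of LPS (2.01, SE 0.21, adjusted p = 0.000104). Lrrk2, the leucine-rich repeat kinase, had 9.23, 7.88 and 10.3 in HS + LPS, 2.18, 1.98 and 1.98 in NS + LPS, 1.99, 2.04 and 2.42 in HS and 1.49 to 1.51 in NS (1.64, SE 0.14). The bicarbonate transporter-like gene Slc4a11 was at 1.78 (SE 0.24).

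Among genes that were below background in some group, 3 related predicted genes on chromosome 14, Gm5796, Gm5797 and Gm5458, were well above background on all HS + LPS arrays and at or near background elsewhere. Gm5796 was at least 6.74-fold higher in HS + LPS than in NS + LPS and Gm5458 at least 21.2-fold. Probes of such near copies can report each other's transcripts, so these are 1 observation at most. Slc17a6, a vesicular glutamate transporter, was at least 10.6-fold higher with salt under LPS. The neuropeptide gene Cck was well above background on all 3 HS + LPS arrays and on 1 array each of NS + LPS and HS. On the negative side Fam71a was at least 3.42-fold lower.

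The size of an interaction depended on signal level. In the dimmest 1 of 5 equal groups of genes the median interaction was -0.27, with 239 positive and 498 negative calls, and that group held 368 of the 611 interactions of at least 2-fold. In the other 4 groups the medians lay between -0.03 and 0.02. The brightest group had 418 positive and 560 negative calls and 29 of the 2-fold interactions. With normexp background correction 221 genes had an interaction of at least 2-fold, and with genes well above background on all 12 arrays 289 did. The offset of 50 added with normexp shrinks folds of dim genes by itself, so the 221 does not measure background correction alone. Negative control spots had a median signal of 5.84 in HS + LPS, 7.71 in NS + LPS, 7.39 in HS and 6.69 in NS. On the scaled values analysed here the lowest signal well above background was 0.0493 in HS + LPS, 0.0474 in NS + LPS, 0.0387 in HS and 0.036 in NS, so the floor was highest in HS + LPS. The part of this floor in the dim values was not tested.

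**Figure D5:**
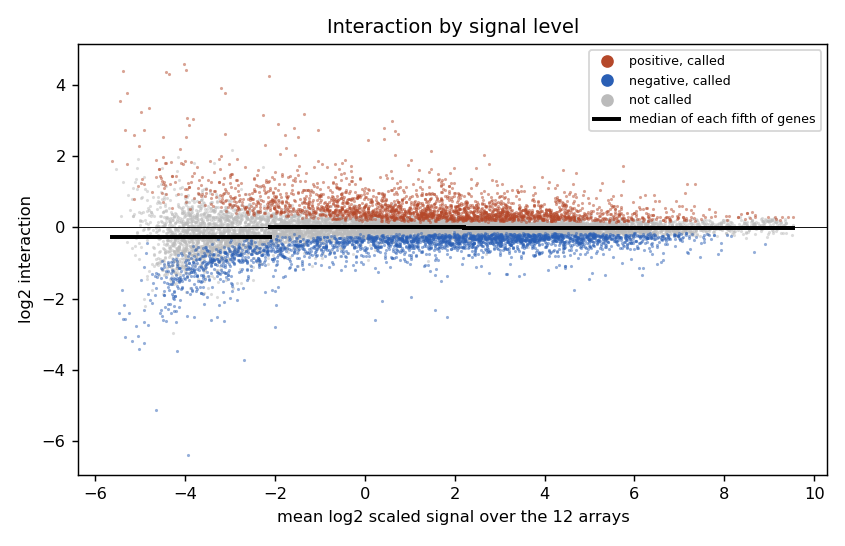
Log2 interaction of 13722 genes against their mean log2 scaled signal over the 12 arrays, coloured by call, with a bar at the median of each of 5 equal groups by level. The dimmest group has a median of -0.27 and a wide spread, and the other 4 have medians between -0.03 and 0.02.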

How the data were processed

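RNA of 12 RAW264.7 samples was read on 1-colour mouse arrays (62976 spots) with Agilent Feature Extraction 10.7.3.1, per the file headers. Scanner values are in units of linear intensity, background subtracted by that software, and the flags for outliers, saturation and signal above background are values of another kind, 0 or 1 per spot, per the file headers. The authors' deposited value table is also linear intensity, with a median of 28.8 on every array and ranks as in the scanner files. No further step is given in the sources used here. Groups come from the titles, slide and scan day from the headers.

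Values were recomputed as log2 intensity minus the array's 75th percentile. Control spots stayed out, outlier spots were dropped (10 probes lost) and none was saturated. Probes had to be well above background on each of the 3 arrays in at least 1 group. Each of 13722 genes was read from its brightest probe, and 3985 genes had several (50 with calls in both directions). Of 55681 probes 22699 had no symbol and were not used, and 27509 matched RefSeq. Probe coordinates are mm9. A fold is called at least a value when no array of the dim group was above background, the dim level then being the higher of its own and the lowest detected signal.

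limma 3.58.1 (R 4.3.3) fitted all 12 arrays (8 residual degrees of freedom). Its 2-sided moderated test was used, with Benjamini-Hochberg adjustment across the genes tested, with 0.05 as the limit of the adjusted p for a call. Lists (36 of functions with 751 distinct measured genes, 7 of markers) are described by counts and medians and were not tested as sets. The lists, rules and alternatives were chosen with earlier results of these data known. Genes picked by rule are the 10 largest called interactions in each direction above background on all arrays, the 5 largest in each direction among the others, up to 4 called members of each list, 18 index genes, the 5 largest joint rises and the 5 largest reversals. Not all of them are described. The index gene Rab15 was not called by its brightest probe (0.66, adjusted p = 0.326 over all probes), while its other probe gave 3.40 (adjusted p = 0.00295). Ccl5, Csf2, Cdkn1a, Mdm2, Vegfa, Pdk1, Pfkm, Zbp1, Irf7, Xaf1, Hif1a and Slc2a1 were added after their values were seen. On simulated data with 200 of 13722 genes changed, 48% of interactions of log2 0.5 and 80% of those of 1 were recovered, with 7 false calls. The simulation held independent normal noise and no effect of slide, scan or signal floor, so it cannot count calls made by those. Replicate numbers did not pair the arrays. Their deviations correlated between -0.201 and 0.119. The number of arrays limits the precision. Other software was the R package data.table (version 1.17.8), statmod 1.5.0, Python 3.11.15, matplotlib 3.10.9, numpy 2.4.6 and pandas 2.3.3.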

Additional observations from a re-analysis of the deposited data

Results flagged for a closer look

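The salt difference differed between cells with and without LPS, by the test of that difference itself, for 4983 genes, and for 675 of them salt was called in opposite directions in the 2 settings. Among the 5 reversals that were largest in both settings, H2-Ob, a subunit of a regulator of class II peptide loading, had a log2 interaction of 3.05, rising at least 1.66-fold with salt under LPS. The MAP kinase-activated kinase gene Mapkapk3 was at 3.77 and the complement-related receptor gene Cd93 at 3.04. Serinc5, a membrane protein that restricts retroviruses, was at 2.2, with all 3 arrays of HS + LPS and of NS well above background and none of NS + LPS or HS. The testis kinase gene Tssk1 was at -2.35. All 5 were dim, none of them well above background on all 12 arrays, so these sizes rest in part on background signals. With normexp background correction they were 1.22 for H2-Ob, 1.97 for Mapkapk3, 1.16 for Cd93 and 0.81 for Serinc5, and the call of Tssk1 ended (-0.43, adjusted p = 0.0529). Also, the second probe of H2-Ob gave 0.46 (adjusted p = 0.231).

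Signal also appeared outside the genes tested. The 8 brightest spike-in probes, which carry no cell RNA, had a median scaled interaction of 0.644, where equal arrays would give 0. The other 2, which are dim, had -0.76 and -0.16.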

How the results depend on the processing

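Of the 4983 interactions called, between 3526 (no filter on dim probes) and 4983 (slide as a random block) were called again in the same direction under the alternatives run over the same genes. Called in the opposite direction were 3 with normexp background correction and 5 with the mean of a gene's probes, and none under the others. The number of calls lay between 3805 and 5767. Interactions of at least 2-fold were 221 (145 positive, 76 negative) with normexp correction, 289 (194 and 95) for genes above background on all 12 arrays and 244 (173 and 71) without the dimmest 1 of 5 equal groups of genes, a setting added after the data were seen. Negative ones of that size numbered 175 with quantile normalization, 170 in the deposited table, 150 with cyclic loess (464 positive) and 481 with no filter. Positive shares were 58.21% with quantile normalization, 61.22% with cyclic loess, 60.25% with the percentile over probes above background on all arrays and 58.26% in the deposited table. With no filter, opposite salt differences numbered 378, larger ones with LPS 354 and smaller ones 117.

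Leaving out each array in turn gave 4140 to 4758 calls (2038 to 2285 positive, 2102 to 2551 negative, 46.28 to 50.62% positive) and 566 to 671 of at least 2-fold (276 to 312 and 263 to 369). Salt was then called with LPS only for 2155 to 2597 genes, without LPS only for 558 to 831, in opposite directions for 455 to 629, larger for 431 to 645, smaller for 157 to 250 and in neither for 119 to 145. The replicate block gave 4581 calls, 597 of at least 2-fold. Only 5 of 12 arrays matched best with their own number, so the numbers are not taken as pairs. Among 185 called genes, those picked by the naming rule (some not described in the text) and those added later, 0 to 17 were lost per setting. Turned in sign were Cfb with normexp correction (-0.35 against 1.59) and, with the mean of a gene's probes, Rpl11 (-0.0027 against 0.29) and Slc12a7 (-0.25 against 0.40). Medians of the chemokine, NF-kB, TLR4, matrix, nitric oxide, oxidative phosphorylation, prostaglandin, ribosomal protein and scavenger lists changed sign under at least 1 of 4 other scalings, and none of the other lists of functions did. The cause of these changes was not tested. Slide and scan day cannot be told apart from HS + LPS under any setting.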
